A study of Rangifer tarandus with 4 samples.

Results

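The CD3 chains are the signalling part of the T cell receptor, and the 4 genes that encode them, CD3E, CD3D, CD3G and CD247, were described from their gene models. They were chosen by symbol, as the gene lines that carry exactly these names, and are 4 of 21880 genes in a cattle (Bos taurus) annotation on the assembly ARS-UCD1.2, deposited with a study of reindeer (Rangifer tarandus) blood. Each symbol matched 1 protein-coding gene, and together the 4 genes had 7 transcripts. In that study, peripheral blood mononuclear cells were taken on day 3 after a wound and made into 10x Genomics single-cell libraries that read the 3′ end of transcripts. Venous blood came from the saphenous vein (group back, 2 libraries) or from the distal antler velvet (group antler, 2 libraries), with 12000 cells loaded per library; age, sex and genotype are not given in the labels used here. Tables of counts per cell were not analysed here. Levels of the CD3 genes in antler and back blood are therefore missing, and the values below are positions and lengths in cattle with no replicate error. Genome and protein sequences were not used here, so exons are described by length and reading frame and not by their letters.

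An alpha-beta or gamma-delta receptor recognises antigen but has almost no cytoplasmic tail of its own, and depends on the CD3 chains to pass the signal into the cell. CD3 epsilon pairs with CD3 delta or CD3 gamma, each with an immunoglobulin-like domain outside the cell, while the zeta chain, encoded by CD247, forms a disulphide-linked homodimer with a very short outer part and a long tail. The tails carry immunoreceptor tyrosine-based activation motifs (ITAMs), which the kinase LCK phosphorylates and the kinase ZAP70 then binds. In blood, CD3 epsilon, delta and gamma are widely used to recognise T cells.

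CD3E, CD3D and CD3G lay side by side on chromosome 15 within 28356 bases, whereas CD247 lay on chromosome 3 and spanned 84115 bases by itself, 2.97 times the whole cluster. The order along the chromosome was CD3E on the plus strand, CD3D on the minus strand and CD3G on the plus strand, from 29004371 to 29032726. CD3E and CD3D thus pointed at each other, and CD3D and CD3G pointed away from each other. The cluster was compact: the 3 genes filled 78.1% of it, and 6214 bases lay between them. Of all runs of 3 neighbouring genes in the annotation, 7.25% (1572 of 21690) fitted in a span no longer than this, and the median run was 135427 bases.

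The 5′ ends of CD3D and CD3G were 1961 bases apart, and their start codons 2059 bases apart. Among all neighbouring genes that point away from each other without overlap, 15.0% (709 of 4714) had 5′ ends at least as close, with a median of 26248 bases. The 3′ ends of CD3E and CD3D, which face each other, were 4255 bases apart, and 29.2% of 4545 such convergent neighbours were at least as close, with a median of 11872 bases. The other distances were longer. The 5′ end of CD3E lay 19250 bases from that of CD3D and 21211 bases from that of CD3G, and the 3′ end of CD3G lay 13261 bases from that of CD3D and 17516 bases from that of CD3E. The close pair of 5′ ends was therefore that of the delta and gamma chains, while epsilon started from its own side of the cluster.

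**Figure D1:**
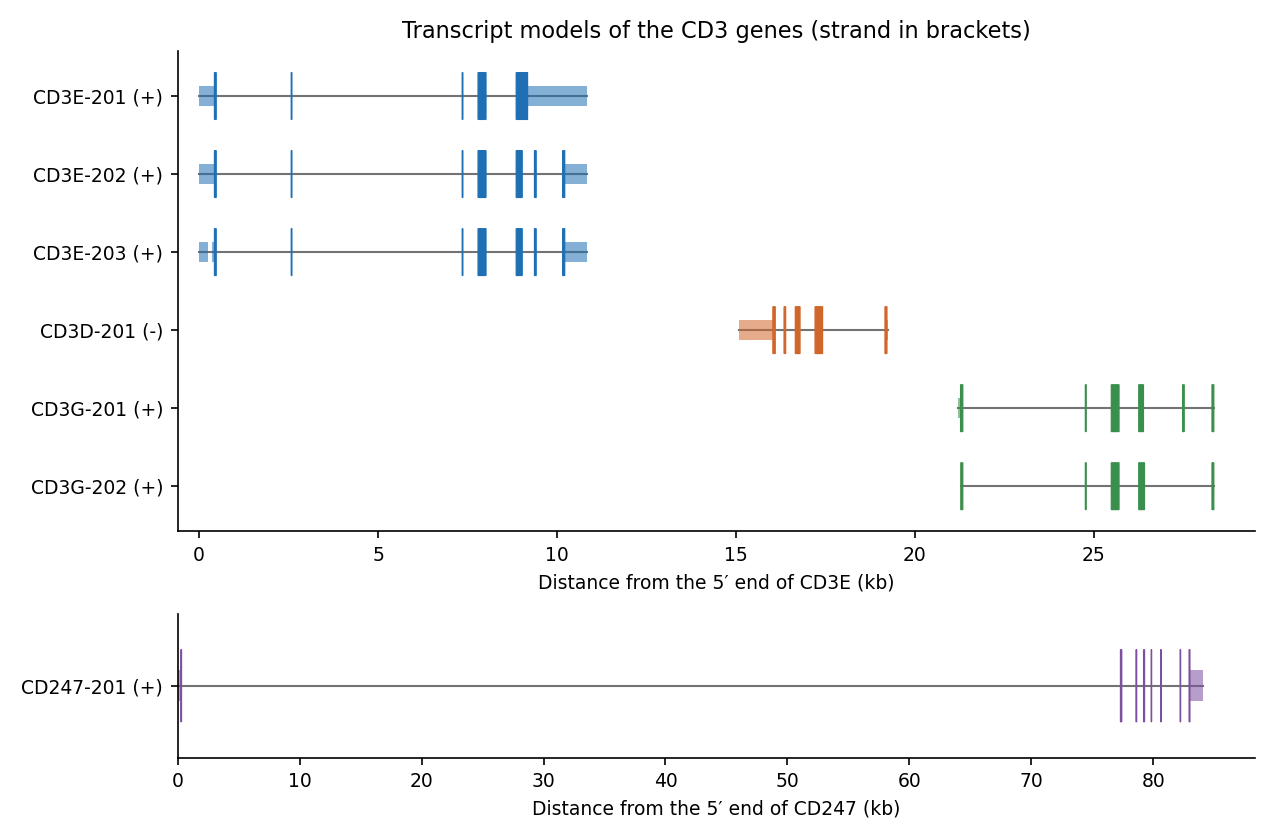
Transcript models of the 3 clustered CD3 genes (upper panel) and of CD247 (lower panel), drawn to scale as distance in kb from the 5′ end of CD3E or of CD247; tall boxes are coding (with a thin outline that keeps the shortest visible), low boxes are UTRs, lines are introns, and the strand is in brackets. CD3E and CD3D face each other across 4255 bases, CD3D and CD3G start 1961 bases apart, and a single intron of 76997 bases fills most of CD247.

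CD3E encodes the epsilon chain, which is shared by both CD3 pairs. The gene (ENSBTAG00000015710, chromosome 15, 29004371 to 29015210, plus strand) had 3 transcripts with the same outer ends, and 33.1% of named protein-coding genes were shorter. The transcripts CD3E-202 and CD3E-203 had the same coding sequence of 576 bases, or 192 residues, in 7 coding exons. They differed only before the start codon, where CD3E-203 removed an intron of 112 bases, which left a 5′ UTR of 315 bases against 427 bases in CD3E-202. CD3E-201 had 5 exons and a longer coding sequence of 621 bases, or 207 residues. Its last exon ran unbroken for 1980 bases from 29013231 to 29015210, across what the other transcripts treat as introns of 343 and 740 bases.

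That unbroken exon changed the end of the predicted protein. The first 475 coding bases were common to CD3E-201 and the other transcripts, and the next 146 coding bases of CD3E-201 were intron in the others. CD3E-201 stopped 1038 bases before the stop codon of the others and did not translate their last 2 coding exons, of 47 and 54 bases. Its 3′ UTR of 1663 bases was made up of 934 bases that are intron in the other transcripts, 101 bases that are coding in them, their stop codon of 3 bases and their own 3′ UTR of 625 bases. The 3′ UTR of CD3E therefore measured 625 bases in 2 of its 3 transcripts, and the 1663 bases belonged to the transcript with the unspliced end alone.

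CD3D encodes the delta chain and had the shortest span of the 4 genes. It (ENSBTAG00000006452, chromosome 15, 29019465 to 29023621, minus strand) spanned 4157 bases, and 14.0% of named protein-coding genes were shorter. Its only transcript had 5 exons, all of them coding, with a 5′ UTR of 30 bases, a coding sequence of 504 bases (168 residues) and a 3′ UTR of 939 bases. Exons made up 35.5% of the gene span, the highest share of the 4 genes. The introns measured 1744, 420, 270 and 247 bases in the order of transcription, so that the longest came directly after the exon that holds the start codon.

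CD3G encodes the gamma chain and was the only one of the 4 genes that ended at its stop codon. It (ENSBTAG00000006453, chromosome 15, 29025582 to 29032726, plus strand) spanned 7145 bases, had 2 transcripts and no annotated 3′ UTR, which was also the case for 20.2% of named protein-coding genes (3399 of 16808). CD3G-201 had 6 exons, a 5′ UTR of 68 bases and 525 coding bases, or 175 residues. CD3G-202 had 5 exons, no 5′ UTR and 504 coding bases, or 168 residues. Its start codon lay 6 bases farther on, its exon 4 was longer by 29 bases, and it skipped the exon of 44 bases. The reading frame was the same at the start codon and in the last exon, and the 2 models differed by 7 residues in length. Both ended at 29032726, the last base of the stop codon.

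CD247 encodes the zeta chain, and almost all of its length was 1 intron. The gene (ENSBTAG00000012700, chromosome 3, 1182748 to 1266862, plus strand) had 1 transcript of 8 exons, with a 5′ UTR of 255 bases, 498 coding bases (166 residues) and a 3′ UTR of 1112 bases. Its first intron, between the exon with the start codon and the rest, measured 76997 bases and took up 91.5% of the gene span. A single intron of more than 90% of the span was annotated in 1 of the 4 CD3 genes and in 1.46% of named protein-coding genes (245 of 16808). This limit was not planned and lies just under the CD247 value. Of named genes, 96.9% had a shorter first intron, where genes without an intron count as shorter. The longest introns of the other members were 4760 bases in CD3E, 3426 bases in CD3G and 1744 bases in CD3D, or 43.9%, 47.9% and 42.0% of the span. Exons 2 to 8 of CD247 lay within 6805 bases, a length like that of the whole CD3G gene, and exons made up 2.22% of the CD247 span.

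In coding length the 4 genes were close to each other. The coding sequences of 498 to 621 bases were short for this annotation, with 8.15% to 13.6% of named protein-coding genes shorter and a median of 1344 bases. CD247 and CD3D differed by 6 coding bases, although the span of CD247 was 84115 bases and that of CD3D 4157 bases. The separate gene thus stood apart in intron length and not in the size of its coding sequence.

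The 3 clustered genes shared a coding exon plan that CD247 did not, for CD3E only in the transcripts CD3E-202 and CD3E-203. CD3E-201 instead ended with a single coding exon of 314 bases after that of 222 bases. CD3D had coding exons of 55, 210, 132, 44 and 63 bases, and CD3G-201 had exons of 61, 24, 216, 132, 44 and 48 bases. In CD3E-202 they measured 49, 18, 18, 222, 168, 47 and 54 bases. The longest of these exons was longer by 6 bases, or 2 codons, from CD3D to CD3G and again from CD3G to CD3E. The exon after it measured exactly 132 bases in both CD3D and CD3G and 36 bases (12 codons) more in CD3E, and the next measured 44 bases in both and 3 bases (1 codon) more in CD3E. Coding exons of 132 and then 44 bases were found in 2 of the 4 CD3 genes and in 0.0276% of named genes with at least 3 coding exons (4 of 14517); the other 2 were BRCC3 and MATR3. This pair of lengths was chosen after its values were seen.

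Between the first exon and the long exon, the clustered genes differed by very short exons. CD3D had none, CD3G had 1 of 24 bases, and CD3E had 2 of 18 bases each. Every one of them is a multiple of 3 bases and keeps the frame. With these exons counted, 85 coding bases preceded the long exon in both CD3G-201 and CD3E, against 55 in CD3D. An inner coding exon of at most 24 bases, a limit set after these exons were seen, was present in 2 of the 4 CD3 genes and in 4.00% of named genes with at least 3 coding exons (581 of 14517).

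The introns cut the codons in 2 different ways. An intron has phase 0 when it falls between codons and phase 1 when it falls after the first base of a codon. In CD3D and CD3G-201 the last intron between coding exons had phase 0 and all earlier ones, 3 and 4 of them, had phase 1. CD3E-202 showed the same order with 5 introns of phase 1, while CD3E-201, which lacks the last introns, had 4 of phase 1 and none of phase 0. In CD247 the change from phase 1 to phase 0 came earlier: the first intron had phase 1 and the other 6 had phase 0. With 1 transcript per gene, the CD3D order was found in 2 of the 4 CD3 genes and in 0.826% of named genes with at least 4 coding exons (110 of 13315), and the CD247 order in 1 of the 4 and in 1.23% (164 of 13315). The first coding intron had phase 1 in all 4 genes, against 38.4% of named genes with at least 2 coding exons. A first intron of phase 1 with a last one of phase 0 held for 3 of the 4, against 15.3%. Both orders and both of these patterns were read from the CD3 genes themselves, so their presence in those genes was fixed in advance. Among all coding introns of named genes, 45.9% had phase 0, 31.8% phase 1 and 22.3% phase 2, and no CD3 transcript had an intron of phase 2.

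**Figure D2:**
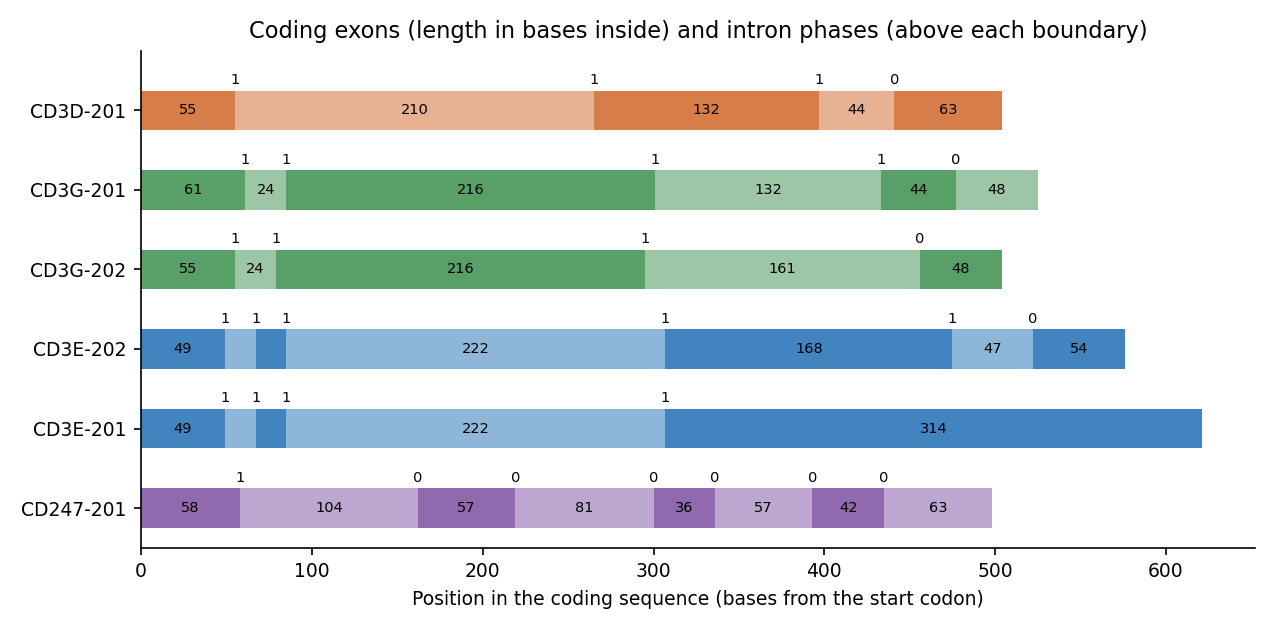
Coding exons of 6 CD3 transcripts, laid end to end from the start codon in bases, with the length written inside each exon of at least 24 bases and the phase of each intron above its boundary; CD3E-203 has the coding exons of CD3E-202 and is not drawn. CD3D and CD3G-201 share exons of 132 and 44 bases and CD3E-202 follows the same plan, whereas CD247 is cut into short exons with introns of phase 0 after the first.

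In CD247 the coding sequence after the first 2 exons was cut into exons of 57, 81, 36, 57, 42 and 63 bases, each a multiple of 3. Of its 6 inner coding exons, 5 were multiples of 3. The counts were 2 of 3 in CD3D, 3 of 4 in CD3G-201, 3 of 3 in CD3E-201 and 4 of 5 in CD3E-202. An inner exon is a multiple of 3 when the introns on both sides have the same phase. These counts thus follow from the phases above, are no separate comparison and did not set CD247 apart. Of the 4 other ITAM chains listed, 1 had the intron phases of CD247 and none had those of CD3D, read in 1 transcript per gene. TYROBP had 4 transcripts and CD79A 2, and the phases of their other transcripts are not given. FCER1G, the gamma chain of Fc receptors, had exons of 49, 92, 33, 21 and 60 bases, with phase 1 at the first intron and phase 0 at the others, the order of CD247. CD79A and CD79B, the signalling chains of the B cell receptor, had a long exon of 294 and 312 bases followed by one of 119 bases, and ended with 2 introns of phase 0. TYROBP, an adaptor of NK cell and myeloid receptors, had 3 coding introns in the transcript read, all of phase 1. Among the 52 genes of the 5 lists described below, read in the same way, FCER1G was alone in the CD247 order. CD4, CD28 and CTLA4 had the CD3D order.

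The annotated 3′ end, the side of a transcript that a 3′ library reads, differed most for CD3G. The last 300 spliced bases were 3′ UTR in a single exon for CD3E, CD3D and CD247, in every transcript. For CD3G-201 they held no UTR, were spread over 4 exons and reached back over 2722 bases of the chromosome, and for CD3G-202 they lay in 3 exons over 2737 bases. A 3′ UTR of at least 300 bases was annotated in 3 of the 4 CD3 genes, against 59.0% of named protein-coding genes (9918 of 16808), so the count of members is near the background. Past the end of CD3G, the next gene on the plus strand was UBE4A, a ubiquitin ligase gene, which began 7112 bases away. Whether reads fell beyond the annotated end of CD3G was not tested.

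At the 5′ end, all 4 genes had an annotated UTR in at least 1 transcript, as did 80.6% of named protein-coding genes. Its length ran from 30 bases in CD3D and 68 bases in CD3G to 255 bases in CD247 and 427 bases in CD3E, beside a median of 145 bases over named genes with those lacking a 5′ UTR set to 0. The divergent pair, CD3D and CD3G, thus had the shortest leaders of the 4. No exon base of any CD3 gene was shared with another gene on either strand.

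**Figure D3:**
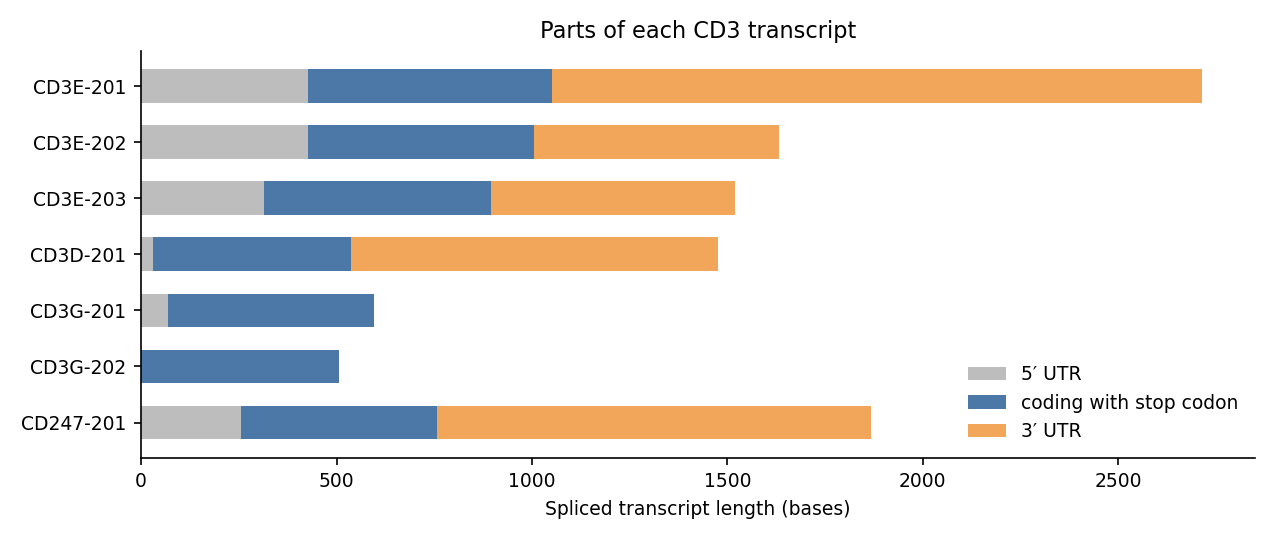
Spliced length in bases of the 7 CD3 transcripts, split into 5′ UTR, coding sequence with stop codon, and 3′ UTR. Both CD3G models stop at the stop codon, while CD3E-201 has the longest 3′ UTR with 1663 bases.

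The whole CD3 cluster lay inside an intron of MPZL2, a gene for an adhesion protein related to myelin protein zero, according to 1 transcript. MPZL2 (ENSBTAG00000033510, chromosome 15, 28942158 to 29085061, minus strand) had 2 models. MPZL2-201 ended its 5′ side at 28953445, 50926 bases before CD3E, and did not reach the cluster. MPZL2-202 placed its first exon of 94 bases at 29084968 to 29085061, on the far side of the cluster, and its first intron of 132910 bases held CD3E, CD3D, CD3G and UBE4A. CD3D lay in that intron on the same strand, and CD3E and CD3G on the opposite strand. In this sense 3 of the 4 CD3 genes lay inside the span of another gene, against 1.99% of named protein-coding genes (334 of 16808), but the 3 share a single intron, and without MPZL2-202 the count was 0. The first exon of MPZL2-202 shared 64 bases with exons of ATP5MG, a subunit of the ATP synthase, on the opposite strand, and none with a CD3 gene.

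Outside the cluster, UBE4A began 7112 bases after CD3G and ATP5MG 52272 bases after it, both on the plus strand. On the other side MPZL3 ended 63479 bases before CD3E and JAML, a junctional adhesion molecule of leukocytes, 91612 bases before it, both on the minus strand. CD247 had CREG1, a gene for a secreted glycoprotein, 22499 bases before it on the same strand and RCSD1 99702 bases before it. POU2F1, which encodes the octamer-binding transcription factor OCT1, faced CD247 from 13206 bases beyond its 3′ end. DUSP27 followed at 338857 bases. The gaps from CD247 to CREG1 and POU2F1 were thus longer than those between adjacent genes of the chromosome 15 cluster, of 4255 and 1961 bases. Of the outer neighbours of the cluster, UBE4A was nearer than these at 7112 bases and MPZL3 farther at 63479 bases.

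Likeness in coding exon structure was measured as the sum of length differences, exon by exon, over named genes with the same number of coding exons. For CD247, with 8 coding exons and 867 genes to compare, the closest were SFT2D2 with a sum of 92 bases, CHMP6 with 125 and CZIB with 134. For CD3D, with 5 coding exons and 1223 genes, CCDC58 and OCEL1 were among the 3 closest with 134 bases each. For CD3G-201, with 6 coding exons and 1146 genes, they were SEC11A with 188 bases, and C5H22orf23 and CD79B with 192 each. The 5 coding exons of CD3G-202 were closest to MDK with 156 bases, WFDC3 with 158 and SPADH1 with 168. CD3E-201 was closest to TMEM52B with 179 bases, MDFIC2 with 180 and NUDT14 with 197. When the 7 coding exons of CD3E-202 were read instead, CFAP410 was closest with 192 bases, so for CD3E, as for CD3G, the closest genes depended on the transcript. CD3 transcripts with different numbers of coding exons were not set against each other by this measure.

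Other genes were taken from 5 lists, 4 of T cell receptor signalling and 1 of ITAM chains from B cell, Fc, NK and myeloid receptors. Most of them were annotated with a 3′ UTR, and CD3G belonged to the smaller number without one. All 51 symbols were matched, to 52 genes, because PAG1 was carried by 2 genes and the symbol does not tell which is the adaptor. The PAG1 gene on chromosome 14 spanned 151916 bases with 7 exons, and that on chromosome 29 spanned 9379 bases with 9. Both are counted, so the adaptor list may hold a gene that is not an adaptor. Of the 52 genes, 46 had a 3′ UTR, or 88.5%, beside 79.8% of all named protein-coding genes, with a median of 768 bases against 649 bases over all named genes with one. The CD3 genes that had one, with 939, 1112 and 1663 bases, lay above both medians, and with CD3E at the 625 bases of its other transcripts it lay below both. The genes without a 3′ UTR in any transcript were PTPRC (the phosphatase CD45), PTPN22, the adaptors LCP2 (SLP-76), GRAP2 (GADS) and FYB1 (ADAP), and MALT1. CD28, UBASH3A, NFATC1 and NFATC2 had none in the transcript with the longest coding sequence. The share over all named genes is not given for that reading, so the 88.5% and 79.8% compare longest UTRs only.

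All 4 other ITAM chains had a 3′ UTR, from 293 bases in FCER1G to 1461 bases in CD79A. Their gene spans ran from 3233 bases in FCER1G to 29466 bases in TYROBP, so that none was as long as CD247. Of 12 genes in the list of coreceptors and costimulation, which also holds the phosphatase PTPRC, 11 had a 3′ UTR. Its length ran from 118 bases in CD28 to 2156 bases in PDCD1, the inhibitory receptor PD-1. Spans in this list ran from 5574 bases in CD27 to 68776 bases in PTPRC. Of 11 kinases and phosphatases of the first signalling steps, 10 had one. The shortest, of 227 bases, was that of PTPN6 (SHP-1), which also had the shortest span with 16320 bases. The longest span of that list was 152078 bases, in FYN. Of 15 genes in the adaptor list, both PAG1 genes included, 12 had one, from 7 bases in SKAP1 to 1945 bases in THEMIS. SKAP1 also had the longest span of all lists with 304149 bases, and SIT1 the shortest with 1551 bases. Of 10 genes further downstream, 9 had one, from 137 bases in NFATC2, which had the longest span with 138857 bases, to 1775 bases in NFATC1. BCL10, with 10093 bases, had the shortest span.

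Against the 52 genes, CD3D stood near the lower end and CD247 towards the upper end of gene span. A shorter span than that of CD3D was found for 4 of the 52 genes, and a longer span than that of CD247 for 13. In coding length, 2 genes were shorter than CD3D and 4 shorter than CD3E, so all 4 CD3 genes were short in coding length beside the listed genes. These counts describe the lists and carry no test.

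**Figure D4:**
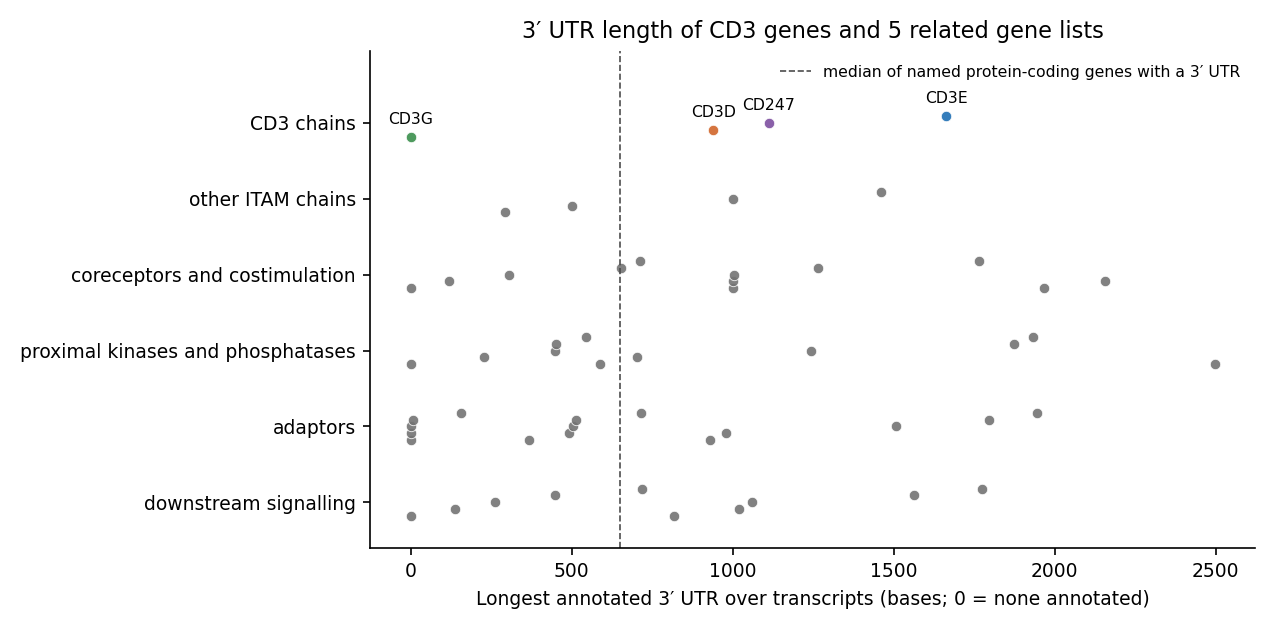
Longest annotated 3′ UTR in bases of each gene in the CD3 group and in 5 lists (4 of T cell receptor signalling, 1 of other ITAM chains), 1 point per gene with small vertical offsets for legibility; 0 means that none is annotated, and the dashed line is the median of 649 bases over named protein-coding genes with one. CD3G sits at 0, while CD3D, CD247 and CD3E lie at 939, 1112 and 1663 bases.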

How the data were processed

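The authors deposited 1 gene annotation, in which each feature has a first and a last position (numbered from 1, both included). Per the file headers it describes cattle, assembly ARS-UCD1.2. STAR, Cell Ranger 3 and Seurat stand in the submitters' processing notes; which step used the cattle annotation is not given in these sources. Positions are other than counts or intensities, so no sequencing depth, sample value or test applies, and antler was not compared with back.

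From the features, gene and coding spans, exons, UTRs without the stop codon, introns and intron phases (from the frame field) were computed in Python 3.11.15 with a reader tested on a simulated annotation. Figures used matplotlib 3.10.9. Unless a transcript is named, values and background shares for exons, introns and coding length come from the transcript with the longest coding sequence. UTRs, in the background shares too, are the longest over transcripts. Spans, nesting and neighbour distances use the ends of the gene. Named genes are protein-coding genes with a symbol. Neighbours follow the order of start positions. Genes named were the members, the 2 nearest genes on each side, any gene overlapping the cluster, the 3 most alike in coding exon lengths, and, per list, genes without a 3′ UTR and those with extreme UTR or span; others were named after their values were seen, and 2 genes that the rule names are not reported here. Members and lists were chosen with earlier results of these data known. Alternatives changed the ends, transcripts and background used.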

Additional observations from a re-analysis of the deposited data

How the results depend on the processing

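No paired analysis was possible because the annotation holds no sample. Of 38 alternative values, 17 equalled the reported one or, for counts, stayed within 1.5 times of it, and 21 moved. Some had to move, as counting the stop codon always lengthens a 3′ UTR, so the tally is no measure of robustness. Measured between start codons, the divergent pair was 2059 bases apart. Between stop codons the convergent pair was 6857 bases apart, which adds the 3′ UTRs of 1663 and 939 bases, and 5819 bases apart with the other CD3E transcripts. From start to stop codons the cluster spanned 27929 bases, CD3E 8750, CD3D 3188, CD3G 7077 and CD247 82748. Over all transcripts CD3E had 10 distinct exons and CD3G 8. The shortest coding sequence was 576 bases in CD3E, also without the extended last exon, and 504 in CD3G. With the stop codon counted, the 3′ UTRs were 1666, 942, 3 and 1115 bases in CD3E, CD3D, CD3G and CD247. The count of genes with a 3′ UTR over all 56 list genes, the members included, was 49. It was 45 with 1 transcript per gene, 48 for at least 50 bases and 45 for at least 200 bases. Over all protein-coding genes the background share was 65.5%. The smallest summed exon difference was 192 bases for CD3E-202 and CD3E-203, and 156 bases for CD3G-202. Leaving out MPZL2-202 left 0 CD3 genes inside another gene; this and the last alternatives for CD3E and CD3G were chosen after seeing the data. Limits are those of the gene models: UTRs can be incomplete, positions are those of cattle, and transcript use in reindeer was not examined.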

Other observations

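The surroundings of the CD3 cluster and of CD247 held genes of the same name families. Within 2 megabases on each side, 65 named genes lay around the cluster and 22 around CD247, and 2 symbol roots were found around both, MPZL and POU. MPZL2 and MPZL3 lay beside the cluster on chromosome 15, and MPZL1 (ENSBTAG00000002823, chromosome 3, 915375 to 997233, minus strand) ended 185515 bases before CD247. The MPZL genes encode membrane proteins with an immunoglobulin-like domain. POU2F3 (ENSBTAG00000021340, chromosome 15, 30816877 to 30903525, plus strand) lay 1784151 bases beyond CD3G, and POU2F1 lay 13206 bases beyond CD247. Both encode octamer-binding transcription factors. CD247 lay 1182747 bases from the first base of its chromosome sequence, so its window was cut short on that side. All 3 MPZL genes had a second coding exon of 167 bases, and the third measured 211 bases in MPZL2 and MPZL3 and 214 bases in MPZL1. A shared symbol root is a description of names, and how often it occurs between other regions was not examined; the MPZL1 and POU2F3 genes were picked with their positions known.

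A 3′ UTR of exactly 1000 bases was the longest of CD6, CTLA4 and TYROBP, 3 of the 52 list genes (5.77%), and of none of the CD3 genes. It was also the longest of 513 of all 16808 named protein-coding genes (3.05%), so the value recurs across the annotation.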
